A study of Mus musculus with 4 samples.

Results

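Among 10 genes of glycolysis and of the 2,3-bisphosphoglycerate (2,3-BPG) side path in mouse blood, Gpi1, Pgam1, Eno1 and Ldha were lower after naringenin (Nar) treatment in limma, by 2.73-fold to 3.66-fold on the deposited scale. Of all 5339 genes tested 39.6% were called lower too. Bpgm, the enzyme gene of 2,3-BPG synthesis, was not called in either direction. It was 30.6 to 93.3 times as abundant as the next highest of the 10 genes, and both of its Nar values exceeded both of its control values. The ratio of Bpgm to its relative Pgam1 within a library was 4.3-fold higher with Nar (exact permutation p = 0.33, 0.48 after Benjamini-Hochberg adjustment), in a design of 2 libraries against 2 that cannot reach a lower p. The 4 falls are relative to the whole library. They were not called once the libraries were scaled so that the typical gene stayed level.

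The genes were chosen as a list of enzymes, Hk1, Gpi1, Pfkl, Aldoa, Tpi1, Pgk1, Pgam1, Bpgm, Eno1 and Ldha. All 10 had values in all 4 libraries, among 17823 genes with values, and all 10 were among the 5339 genes that could be tested (mean FPKM of at least 0.5). FPKM gives the sequenced fragments of a transcript relative to its length and to the size of the library. The libraries were made from poly(A) RNA of the blood of C57BL/6 mice, which the labels call adult and which were 12 months old. Mice of the Nar group received 20 mg/kg of this flavonoid through the tail vein, and control (Ctrl) mice received phosphate-buffered saline, both for 30 days. There are 2 libraries in each group, numbered 1 and 3, and paired values below are given for library 1 and then library 3. The sources do not say whether a library came from 1 mouse or from a pool, so the p-values below measure the spread between these libraries, which may be technical.

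Glycolysis splits glucose into pyruvate and then lactate. A mature red cell has no mitochondria and depends on it for ATP. Red cells also divert part of the intermediate 1,3-bisphosphoglycerate to 2,3-BPG, which binds haemoglobin and lowers its affinity for oxygen. The synthase of 2,3-BPG is encoded by Bpgm, a relative of the glycolytic mutase gene Pgam1, and is a hallmark of red cells. Neutrophils, which have few mitochondria, and platelets also rely on glycolysis, so that whole blood mixes several sources of the same enzyme transcripts.

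Haemoglobin transcripts made up 92.6% to 96.4% of the summed FPKM, so that all other genes shared the small rest. Over all tested genes, the median of the log2 fold changes (Nar over Ctrl, on log2(FPKM + 0.1)) was -1.07, so a typical gene was listed lower with Nar. Fewer cells of a type and less RNA per cell cannot be told apart in such libraries. Of 14 neutrophil marker genes all 12 tested were called lower, with a median log2 fold change of -3.67, and the list summed to 1442 to 1747 FPKM in Ctrl against 106 to 165 with Nar. Elane was at 0 in Nar 1 and Mpo in Nar 3, and neither exceeded 0.24 FPKM in any library. Of 15 tested erythroid marker genes that encode no haemoglobin, 0 were called in limma, with a median of 0.37, and their list summed to 6607 to 7724 FPKM in Ctrl and 7082 to 7444 with Nar. Ctrl 3 stood apart in platelet transcripts, with 6 platelet marker genes summing to 2062 FPKM there and to 419 to 643 in the other libraries. The part of these cell types in the results was not tested. The files give no depth, and the steps between low values put it roughly at 22500000 to 23000000 fragments per library.

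Bpgm (NCBI Gene 12183, chr6:34476356-34505136, plus strand, GRCm38.p6, as all positions here) stood at 1544.25 and 1862.12 FPKM in Ctrl against 2351.97 and 1958.64 with Nar. Both Nar libraries lay above both Ctrl libraries, with means of 2155 ± 278 FPKM (SD, n = 2) against 1703 ± 225 (SD, n = 2). Outside the haemoglobin genes it ranked 6th in Ctrl 1 and in Ctrl 3, 2nd in Nar 1 and 3rd in Nar 3. Its log2 fold change was 0.34 (95% interval -0.37 to 1.05, limma adjusted p = 0.353), which the spread between libraries does not separate from 0. It was 0.205 without Ctrl 1, 0.208 without Nar 1, 0.475 without Ctrl 3 and 0.472 without Nar 3. Relative to the median of all tested genes the difference was 1.41 on the log2 scale, and from the lowest of the 5339 fold changes its own ranked 5177th.

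Bpgm alone made up 93.1% and 92.4% of the FPKM of the 10 genes in the Ctrl libraries, and 97.2% and 97.5% in the Nar libraries. Outside haemoglobin its share was 2.06% and 1.70% in Ctrl against 3.57% and 3.44% with Nar. The other 9 genes together took 0.153%, 0.140%, 0.101% and 0.0876% in the same order. Outside haemoglobin, Bpgm thus took a larger share and the other 9 genes a smaller share in both Nar libraries. The share of Bpgm among the 10 genes and that of the other 9 outside haemoglobin each had an exact permutation p of 0.33 (two-sided), the smallest that 2 libraries against 2 allow, and 0.39 after Benjamini-Hochberg adjustment over 7 such quantities. Set against another red cell transcript, Alas2, which encodes the first enzyme of haem synthesis in erythroid cells, Bpgm stood at 0.255 and 0.266 in Ctrl against 0.362 and 0.302 with Nar, a 1.27-fold difference without overlap (exact permutation p = 0.33).

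Hk1 (chr10:62268855-62379920, minus strand), the hexokinase of red cells and many other tissues, opens the path by phosphorylating glucose. It stood at 7.47 and 20.15 FPKM in Ctrl against 10.3 and 5.5 with Nar. The groups overlapped, and the 2 control libraries differed more from each other than the group means did. The log2 fold change of -0.70 (95% interval -2.08 to 0.68, limma adjusted p = 0.33) became 0.01 without Ctrl 3, the library highest in platelet markers.

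Gpi1 (chr7:34201327-34230336, minus strand) encodes glucose-6-phosphate isomerase, the next enzyme, and had 14.28 and 13.62 FPKM in Ctrl against 3.47 and 4.02 with Nar. The groups were far apart, and the replicates of each were close. Gpi1 had the lowest log2 fold change of the 10 genes, -1.87 (SE 0.454, limma adjusted p = 0.0203). Pfkl (chr10:77986947-78009807, minus strand), the liver-type phosphofructokinase that carries out the committed step, was the scarcest of the 10, with 0.61 and 0.67 FPKM in Ctrl against 0.46 and 0.28 with Nar. Both Nar libraries were lower, but these values rest on an estimated 24 to 56 fragments each, and the difference did not pass (limma adjusted p = 0.186).

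Aldoa (chr7:126795234-126800994, minus strand), aldolase A, was the most abundant after Bpgm, at 40.18 and 60.78 FPKM in Ctrl against 29.7 and 21 with Nar. Tpi1 (chr6:124810586-124814158, minus strand) encodes triosephosphate isomerase, which interconverts the triose products of aldolase, and had 12.7 and 16.96 FPKM in Ctrl against 6.7 and 6.48 with Nar. Both Nar libraries were below both Ctrl libraries for each gene. Neither was called, with log2 fold changes of -0.98 (limma adjusted p = 0.136) and -1.14 (limma adjusted p = 0.0752), close to the median of all tested genes.

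Pgk1 (chrX:106187100-106203699, plus strand), the phosphoglycerate kinase that makes ATP from the same intermediate that feeds 2,3-BPG synthesis, had 8.3 and 10.14 FPKM in Ctrl against 4.31 and 3.33 with Nar. It missed the threshold narrowly, at a log2 fold change of -1.25 (95% interval -2.28 to -0.23, limma adjusted p = 0.0527). Pgam1 (chr19:41911871-41918665, plus strand), the mutase of the following step, had 2.8 and 4.11 FPKM in Ctrl against 0.94 and 1.06 with Nar. Its log2 fold change was -1.67 (SE 0.384, limma adjusted p = 0.0184), the second lowest of the list, on an estimated 38 and 43 fragments in the Nar libraries.

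Eno1 (chr4:150236708-150248879, plus strand), alpha-enolase, had 16.76 and 16.47 FPKM in Ctrl against 6.25 and 5.16 with Nar. Ldha (chr7:46842274-46855627, plus strand) encodes the A subunit of lactate dehydrogenase, which regenerates NAD+ at the end of the path, and had 11.42 and 9.97 FPKM in Ctrl against 4.81 and 3.07 with Nar. The groups were well separated for both genes. The log2 fold change was -1.53 for Eno1 (SE 0.469, limma adjusted p = 0.0348) and -1.45 for Ldha (SE 0.471, limma adjusted p = 0.0406). Eno1b, a near-identical copy of Eno1, was listed without values, and of the aldolase retrogenes Aldoart1 reached at most 0.07 FPKM and Aldoart2 was listed at 0, so how reads were divided among the copies is uncertain.

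**Figure D1:**
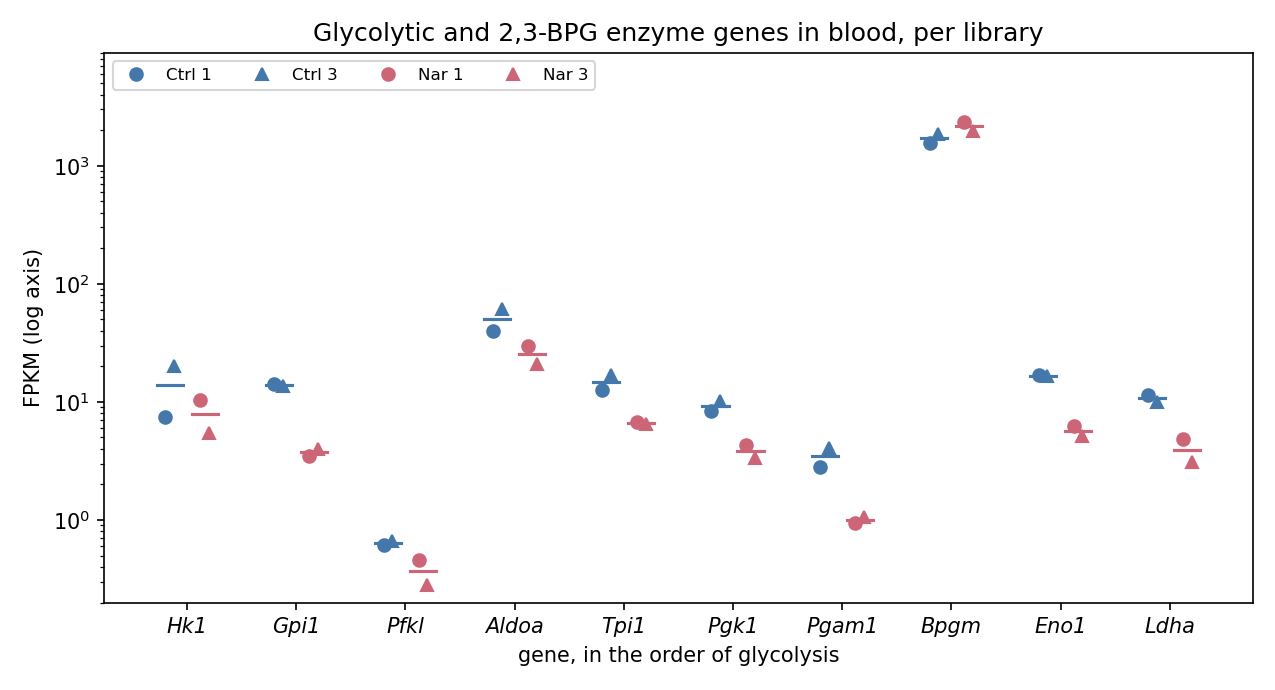
FPKM (log axis) of the 10 enzyme genes in the order of glycolysis, with 1 point per library (blue, Ctrl; red, Nar; circles, library 1; triangles, library 3) and a bar at each group mean (n = 2). Bpgm lies between 1544 and 2352 FPKM, and no other gene exceeds 60.78; 8 genes have both Nar points below both Ctrl points, Bpgm has them above, and Hk1 overlaps.

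In all, 4 of the 10 genes were called lower with Nar and 0 higher, at a Benjamini-Hochberg adjusted p under 0.05 over all tested genes. Beside the 39.6% of all tested genes called lower, 0.187% were called higher, so that the share of lower calls on the list is near the background. Among the 10 genes, 0 were higher at an unadjusted p under 0.05 either. Both Nar libraries lay below both Ctrl libraries for 8 of the 10 (78.3% of all tested genes did so) and above them for 1, Bpgm (1.27% of all tested genes). The list had a median log2 fold change of -1.20, beside -1.07 for all tested genes. Gpi1, Pgam1, Eno1, Ldha, Pgk1 and Tpi1 lay below the overall median, and Hk1, Pfkl, Aldoa and Bpgm above it.

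Median-of-ratios scaling sets the typical gene level between libraries, and moved the median of all tested genes from -1.07 to -0.002. After it, 0 of the 10 genes were called in limma, and 1, Bpgm, had an unadjusted p under 0.05. Of all tested genes, 0.599% were then called lower and 0.187% higher. Bpgm had the largest change of the 10 on that scale, a log2 fold change of 1.52 (95% interval 0.79 to 2.24, limma adjusted p = 0.0664), followed by Gpi1 at -0.72 (adjusted p = 0.533) and Pgam1 at -0.56 (adjusted p = 0.611). The value of Bpgm was close to the median of the 15 tested erythroid marker genes on the same scale, 1.49. Those 15 genes were widely spread, from -1.15 to 1.34 on the deposited scale, so closeness to their median says little. After median-of-ratios scaling the median was 1.10 for 10 tested haemoglobin genes and -2.50 for the neutrophil markers. Hk1, Pfkl, Aldoa and Tpi1 changed sign, to 0.46, 0.29, 0.19 and 0.02. With 1 library left out, the log2 fold changes stayed between -1.98 and -1.77 for Gpi1, -1.94 and -1.40 for Pgam1, -1.67 and -1.40 for Eno1, and -1.77 and -1.13 for Ldha. Such fits of 2 libraries against 1 called few genes of any kind in limma, 0 of all 5339 without Ctrl 1 or Ctrl 3, 259 without Nar 1 and 213 without Nar 3. None of the 10 enzyme genes was among them, with 5, 4, 3 and 2 of the 10 at an unadjusted p under 0.05 in the same order, so that these p-values say little about stability. With the replicate number as a block, Pgam1 was called and the other 3 were not (limma adjusted p = 0.0507 for Gpi1, 0.106 for Eno1 and 0.0999 for Ldha), beside 1815 of all 5339 genes.

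**Figure D2:**
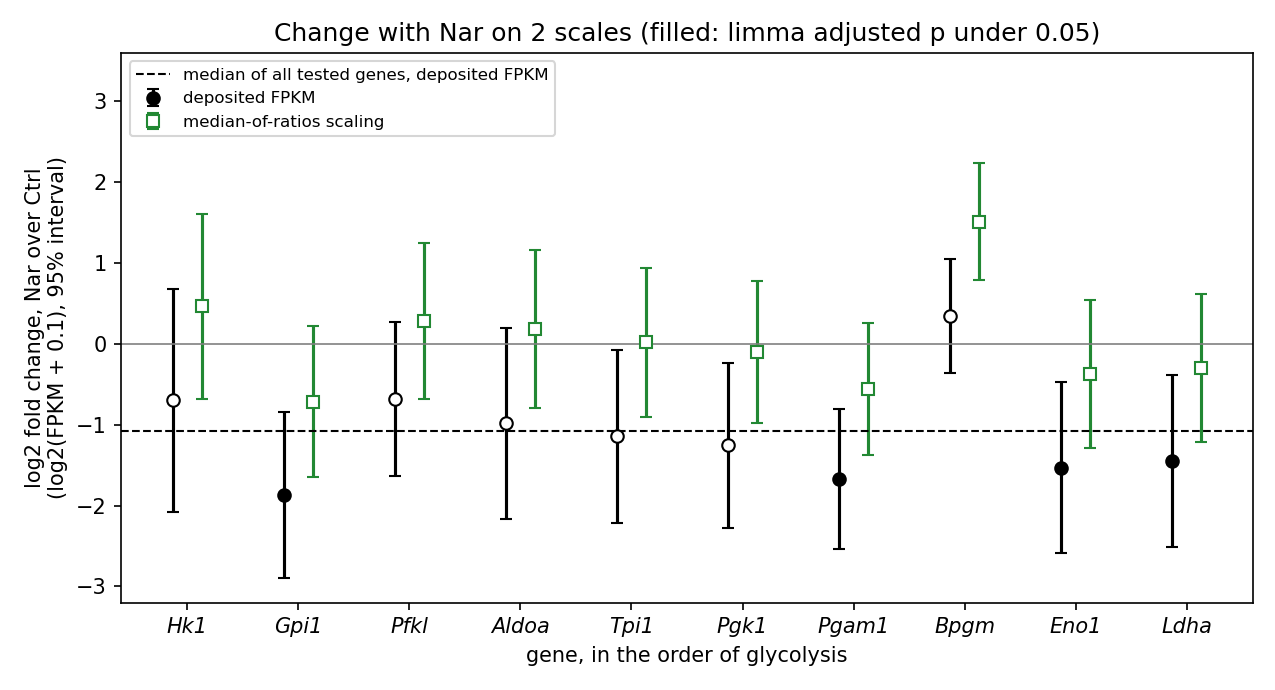
Log2 fold change (Nar over Ctrl, on log2(FPKM + 0.1)) of each gene with its 95% interval from limma, on the deposited FPKM scale (black circles) and after median-of-ratios scaling (green squares); filled symbols have an adjusted p under 0.05. The dashed line is the median of all tested genes on the deposited scale, -1.07; Gpi1, Pgam1, Eno1 and Ldha are filled on that scale, no gene is filled after scaling, and Bpgm is the highest on both.

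A ratio of 2 genes within a library does not depend on how the library was scaled. Of 11 pairs planned, 10 could be formed, since Pklr, the red cell and liver pyruvate kinase, was listed without values. The Bpgm to Pgam1 ratio was 552 and 453 in Ctrl against 2502 and 1848 with Nar. Both Nar libraries were well above both Ctrl libraries. The difference was 2.10 on the log2 scale, a ratio 4.3-fold higher, against an SD within groups of 0.261, and with each library left out it ran from 1.89 to 2.32. The exact permutation p of 0.33 (two-sided; 0.48 after adjustment over the 10 pairs) is the smallest possible here, so the test could not pass a threshold of 0.05 for any pair.

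Several pairs share a gene and are not independent of each other. Hk1 to Hk3, the hexokinase of myeloid cells, was 2.83 and 20.4 in Ctrl against 49.0 and 30.6 with Nar, so that most of the difference came from Ctrl 1. Its log2 difference of 2.35 became 3.77 without Ctrl 3 and 0.93 without Ctrl 1. Pgk1 to Pgam1 was 2.96 and 2.47 in Ctrl against 4.59 and 3.14 with Nar, so that the ratio of these neighbouring steps was higher by 0.49 on the log2 scale against an SD within groups of 0.303. This was 0.216 without Nar 1 and 0.762 without Nar 3. Ldha to Ldhb, the subunits of muscle and heart lactate dehydrogenase, was 26.0 and 22.7 in Ctrl against 18.5 and 9.30 with Nar, a log2 difference of -0.89 that became -0.39 without Nar 3 and -1.38 without Nar 1. Of these, Ldhb lay under 0.5 FPKM in every library, as did Hk2 and Pfkm. The Aldoa to Tpi1 ratio overlapped between groups, at 3.16 and 3.58 in Ctrl and 4.43 and 3.24 with Nar, which is a log2 difference of 0.17 against an SD of 0.243.

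**Figure D3:**
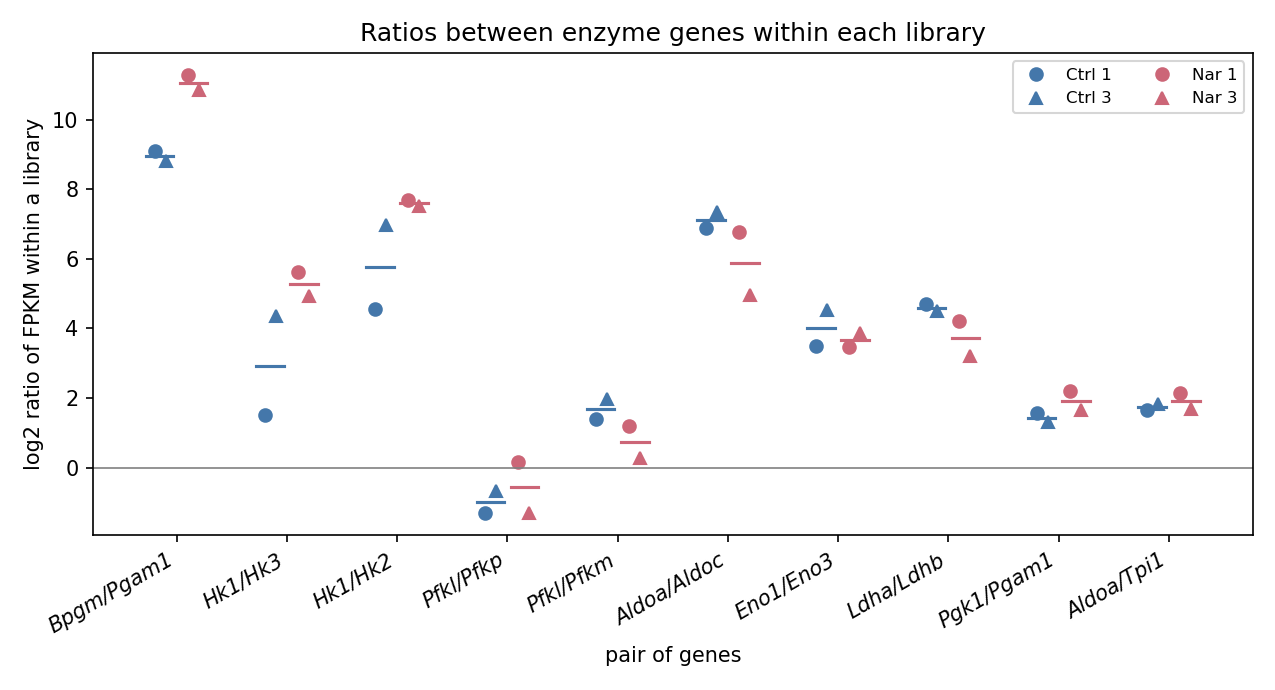
Log2 ratio of the FPKM of 2 enzyme genes within each library, with 1 point per library (blue, Ctrl; red, Nar; circles, library 1; triangles, library 3) and a bar at each group mean (n = 2). The mean Bpgm/Pgam1 log2 ratio is 8.97 in Ctrl and 11.07 with Nar, with no overlap, while the Hk1 ratios are spread widely between the control libraries.

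Sequences are from RefSeq on GRCm38.p6, the build series named in the submitters' processing notes, and all 10 genes matched, with 16 windows from 250 bases before to 50 after a start site. The letters ACGTG, the core of the hypoxia response element through which HIF regulates many glycolytic genes, were searched on both strands and occurred in 6 of the 16 windows, belonging to 5 of the 10 genes, beside 19.6% of all 32851 windows and 21.8% of all genes. Genes with several windows have more chances of a match. Windows of 1 gene can also overlap, and windows 2 and 3 of Aldoa hold the same match, which is counted in both. The 5 genes were Hk1 and Aldoa, whose fold changes lay above the overall median, and Pgk1, Pgam1 and Ldha, which lay below it. Of the genes without a match, Pfkl and Bpgm lay above that median and Gpi1, Tpi1 and Eno1 below it, so the letters did not separate the genes by their fold change. The windows printed here are those of Bpgm and its relative Pgam1, and of 2 more genes with matches. Each reads 5′ to 3′ on the gene's strand with the matches in capitals. In the order Bpgm, Pgam1, Pgk1 and Ldha they are chr6:34476106-34476405 (plus strand), chr19:41911621-41911920 (plus), chrX:106186850-106187149 (plus) and chr7:46845554-46845853 (plus). The Ldha window, the first of 2, surrounds a start site inside the annotated gene. Each run CACGTG in it holds 2 overlapping matches, 1 on each strand.
Bpgm: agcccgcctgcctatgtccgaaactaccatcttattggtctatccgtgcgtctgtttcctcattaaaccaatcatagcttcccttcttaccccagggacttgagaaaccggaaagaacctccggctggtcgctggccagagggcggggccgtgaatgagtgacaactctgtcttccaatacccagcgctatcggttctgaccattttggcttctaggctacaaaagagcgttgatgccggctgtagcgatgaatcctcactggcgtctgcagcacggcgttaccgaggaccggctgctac
Pgam1: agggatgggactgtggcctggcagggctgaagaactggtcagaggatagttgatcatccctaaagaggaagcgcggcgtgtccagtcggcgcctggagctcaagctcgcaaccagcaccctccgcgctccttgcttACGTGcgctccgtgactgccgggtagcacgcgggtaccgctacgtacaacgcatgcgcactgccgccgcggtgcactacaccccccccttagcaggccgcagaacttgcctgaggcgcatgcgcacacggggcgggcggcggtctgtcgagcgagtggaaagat
Pgk1: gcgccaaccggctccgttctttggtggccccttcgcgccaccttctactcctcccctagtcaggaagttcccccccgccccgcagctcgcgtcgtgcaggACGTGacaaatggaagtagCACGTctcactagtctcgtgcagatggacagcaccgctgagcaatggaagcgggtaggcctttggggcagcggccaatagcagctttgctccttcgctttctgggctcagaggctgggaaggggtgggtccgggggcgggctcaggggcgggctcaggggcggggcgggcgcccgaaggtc
Ldha: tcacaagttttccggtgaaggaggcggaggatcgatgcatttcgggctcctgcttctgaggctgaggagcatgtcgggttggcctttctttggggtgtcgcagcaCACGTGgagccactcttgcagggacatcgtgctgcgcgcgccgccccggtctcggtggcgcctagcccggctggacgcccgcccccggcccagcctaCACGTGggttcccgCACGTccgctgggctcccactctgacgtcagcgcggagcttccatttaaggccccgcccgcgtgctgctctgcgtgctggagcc

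Of the other letters searched, AGATAA, bound by GATA factors, occurred in 0 of the 16 windows (11.2% of all windows), and CACCC, a box bound by Krüppel-like factors, in 9 (57.5% of all windows) but not in that of Bpgm. A match is a description of these letters and not of binding.

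The rest of the glucose pathways was followed in 44 further genes, of which 40 had values and 19 could be tested. Of the 19, 9 were called lower and 0 higher in limma, beside the 39.6% and 0.187% of all tested genes. Without Ctrl 1 or Ctrl 3 the count of lower calls was 0, without Nar 1 it was 4, without Nar 3 it was 1, and after median-of-ratios scaling it was 1. Among the other glycolytic isozymes 2 of 5 fell, Hk3 and Pfkp, the platelet-type phosphofructokinase. Hk3 stood at 2.64 and 0.99 FPKM in Ctrl against 0.21 and 0.18 with Nar (log2 fold change -2.55, limma adjusted p = 0.0101), the latter on an estimated 15 and 13 fragments. Pkm, which encodes the pyruvate kinase of most tissues, and Gapdh were the most abundant, and both were highest in Ctrl 3. Pkm had 61.68, 145.71, 41.93 and 29.81 FPKM in Ctrl 1, Ctrl 3, Nar 1 and Nar 3 (limma adjusted p = 0.0717), and Gapdh 39.02, 82.08, 22.51 and 28.07 FPKM (limma adjusted p = 0.105).

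Transport genes held both the lowest and the highest fold changes of the pathway. Slc16a3, which encodes the lactate exporter MCT4, stood at 3.27 and 2.92 FPKM in Ctrl against 0.17 and 0.23 with Nar, the latter on an estimated 17 and 23 fragments. With a log2 fold change of -3.42 (SE 0.345, limma adjusted p = 0.00238), it was also the only gene of these pathway lists that was called after median-of-ratios scaling (log2 fold change -2.43, limma adjusted p = 0.0266). The glucose transporter genes Slc2a1 and Slc2a6 fell as well, with log2 fold changes of -2.18 and -1.79 (limma adjusted p = 0.00654 and 0.0135), on an estimated 17 to 37 fragments in the Nar libraries. Slc2a3, another glucose transporter, did not pass (limma adjusted p = 0.126). Mpc2, a subunit of the mitochondrial pyruvate carrier, stood at 4.36 and 8.98 FPKM in Ctrl against 17.69 and 10.46 with Nar. Both Nar libraries were above both Ctrl libraries, at a log2 fold change of 1.11 (95% interval -0.14 to 2.35, limma adjusted p = 0.117), while its partner Mpc1 was at 4.36 and 9.38 FPKM in Ctrl against 2.54 and 2.64 with Nar (limma adjusted p = 0.0623).

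The pentose phosphate pathway, which makes NADPH from glucose 6-phosphate, had 3 of 5 tested genes called lower, beside 39.6% of all tested genes. G6pdx and Pgd, its 2 NADPH-forming dehydrogenases, had log2 fold changes of -1.83 and -2.07 (limma adjusted p = 0.0211 and 0.0151), and Tkt, transketolase, had -1.87 (limma adjusted p = 0.0208). None of the 3 was called after median-of-ratios scaling (limma adjusted p = 0.522 for G6pdx, 0.327 for Pgd and 0.534 for Tkt). Taldo1, transaldolase, was the most abundant of them, and its groups overlapped, with 87.34 and 163.84 FPKM in Ctrl against 97.93 and 71.97 with Nar (limma adjusted p = 0.408). Of the regulators of phosphofructokinase, Pfkfb4 fell by 1.72 on the log2 scale (limma adjusted p = 0.0184), and Pfkfb3 did not pass (log2 fold change -1.04, limma adjusted p = 0.054). Minpp1, a phosphatase that can remove a phosphate from 2,3-BPG, lay at 0.19 to 0.39 FPKM, too low to be tested, and is named here after its values were seen.

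**Figure D4:**
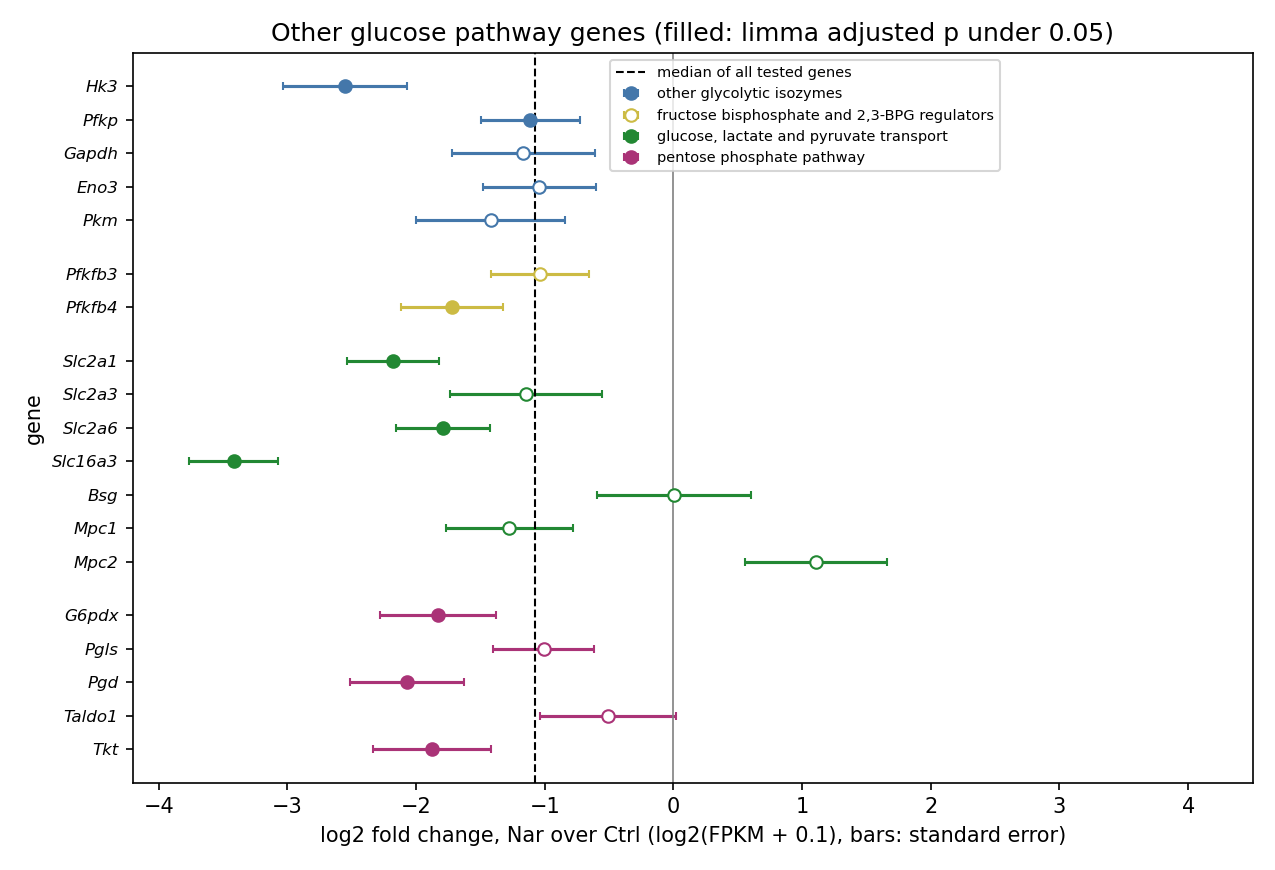
Log2 fold change (Nar over Ctrl, on log2(FPKM + 0.1)) of the 19 tested genes of the other glucose pathway lists, with standard errors from limma and colours by list; filled symbols have an adjusted p under 0.05. The dashed line is the median of all tested genes, -1.07; Slc16a3 is the lowest at -3.42, and Mpc2 at 1.11 and Bsg at 0.01 are the only ones not below 0.

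The genes whose profile over the 4 libraries was most like that of Bpgm were Zbtb44, Ucp2, Larp1b, Mgst3 and Ank, by the distance between log2(FPKM + 0.1) values centred on each gene's mean, which ran from 0.0463 to 0.162. Of these, Ucp2, a mitochondrial carrier, was the only one of like abundance, with 691.78 and 854.06 FPKM in Ctrl against 1078.47 and 970.81 with Nar. The other 4 lay between 1.25 and 6.09 FPKM. The likeness rests on 4 libraries and is a description only.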

How the data were processed

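Poly(A) RNA of mouse blood was sequenced in 4 libraries, and their groups and numbers were taken from the sample titles. Per gene, the authors deposited FPKM, which carries 2 decimals. The paper's methods name bowtie-2 and reference gene sequences, while the submitters' processing notes name TopHat2, Cufflinks and GRCm38. The annotation is not given in the sources used here. Each column was matched to 1 library, and 0 were left over. The table lists 23136 genes, and 5313 of them hold no values.

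FPKM values are not read numbers, so DEGseq, the test of the paper's methods, was not used. Differences on log2(FPKM + 0.1), which understates changes of low genes, were tested for 5339 genes (mean FPKM at or above 0.5) with limma 3.58.1 in R 4.3.3 (lmFit, eBayes with trend, no block), with Benjamini-Hochberg adjustment over all of them. The steps were tested on simulated data. Every adjusted p given for a gene comes from limma. Ratios and shares were compared by exact permutation tests (scipy 1.17.1). The value of 1 fragment was sought as a step between 0.02 and 0.2 in FPKM times kilobases of GENCODE transcript length over low values of short genes. It was best at 0.0435 to 0.0445, with a mean cosine of 0.209 to 0.311 out of 1, so fragment numbers are rough estimates and cover counting error only.

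The genes, lists and ratios were chosen with earlier results of these data known, and the ratios of Bpgm to erythroid transcripts after its values had been seen. Named genes were the 10 enzymes, other pathway genes that passed the same filter, and the 5 tested genes nearest to Bpgm in profile; genes under that mean and marker genes are named where a ratio or a comparison uses them. Outside this rule, Minpp1, Aldoart1, Aldoart2 and Eno1b are named as a 2,3-BPG phosphatase and as copies of enzyme genes. Monocyte marker genes had 4 of 8 called lower (median log2 fold change -1.54), and 0 of 6 B cell, 0 of 5 T cell and 0 of 6 platelet marker genes were called in limma (medians -0.41, -0.47 and -1.21). Plots were drawn with matplotlib 3.10.9.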

Additional observations from a re-analysis of the deposited data

How the results depend on the processing

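Of the alternatives, a pseudocount of 1 or 0.01, TPM, eBayes without the trend and a required fold change over 2 left 4 or 5 of the 10 enzyme genes called lower and 0 higher, beside 1833, 2059, 2261, 1790 and 2106 of all 5339 genes called in either direction. The count was 0 without the filter on low values (0 of all 16382 genes were called in limma, and 4978 had an unadjusted p under 0.05), 1 with a mean FPKM of at least 5 (117 of all genes), 0 with haemoglobin removed (281 of all genes) and 0 with median-of-ratios scaling (42 of all genes); the other pathway genes called lower were then 0, 3, 4 and 1, and with haemoglobin removed 1 was higher. The list's median moved to -0.645 and -0.04 under the last 2. Median-of-ratios scaling reversed Hk1 (0.464), Pfkl (0.285), Aldoa (0.19) and Tpi1 (0.019). The causes were not tested beyond the construction of each scaling.

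The labels give no reason to pair the numbers. Deviations of same-numbered libraries from their group means were only weakly, and negatively, correlated across genes (-0.153 for Ctrl 1 with Nar 1). With the replicate block, 1 enzyme gene, 8 other pathway genes and 1815 of all genes were called. With the crossed pairing, chosen after seeing the data, these were 7, 15 lower and 1 higher, and 3233.

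With 1 library left out, the lone library of its group is assumed to vary like the others. Enzyme genes called lower then ran from 0 to 0, other pathway genes lower from 0 to 4 and all genes from 0 to 259. The log2 fold change of Hk1 ran from -1.41 to 0.012, and the log2 ratio differences ran from -0.312 to 1.16 for Pfkl/Pfkp, from -0.868 to 0.167 for Eno1/Eno3 and from -0.0552 to 0.397 for Aldoa/Tpi1. A pseudocount of 0.1 moved Hk1/Hk2 from 1.84 to 0.545. The 10 genes' share differed by 0.0191 percentage points of all FPKM, less than the SD within groups of 0.0202 (exact permutation p = 0.67), and by 0.00463 to 0.0336 with 1 library left out; outside haemoglobin it differed by 1.57. Depth limits Pfkl, Pgam1, the isozymes under 0.5 FPKM and, in the Nar libraries, Hk3, Slc16a3, Slc2a1 and Slc2a6.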
